A study of Rattus norvegicus with 3 samples.

Results

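The genes of the VEGF and angiopoietin system were examined in 3 cultures of rat mesenchymal cells, each measured on 1 whole rat genome array. The 10 genes were chosen by name, as the ligands Vegfa, Vegfb, Vegfc, Vegfd, Angpt1 and Angpt2 and the receptors Flt1, Kdr, Tek and Tie1, and all 10 had at least 1 probe among the 13301 genes that could be named on the array. The cultures were the osteosarcoma cell line COS1NR and the malignant fibrous histiocytoma (MFH) cell line MFH1NR, both derived from tumors that 4-HAQO had induced in F344 rats and both reported to carry a p53 mutation, and mesenchymal stem cells (MSCs) grown on plastic from femur bone marrow of F344 rats. The MSCs were untreated, were not sorted by surface markers, and were kept in medium with more serum than the lines. The age and sex of the animals are not given in the sources used here. The question was how the expression of these genes in the sarcomas compares with that in the MSCs, their presumed cells of origin.

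VEGF ligands are secreted factors that drive the growth of blood vessels. Vegfa acts through the receptor tyrosine kinases Flt1 (VEGFR-1) and Kdr (VEGFR-2), Vegfb binds Flt1, and Vegfc and Vegfd act mainly on lymphatic vessels through Flt4 (VEGFR-3). Angpt1 activates the receptor Tek (Tie2) and stabilizes vessels, Angpt2 can oppose it, and Tie1 is a related receptor that modulates Tek. The receptors are known above all from endothelial cells, while most of the ligands are made by mesenchymal, tumor or immune cells and Angpt2 mainly by endothelial cells, and Vegfa is a textbook target of the hypoxia-inducible factors.

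Each value below is the background-subtracted intensity of a probe, and ratios were taken after dividing each array by its own 75th percentile (589 for MSCs, 774 for COS1NR, 994 for MFH1NR). There was 1 array per cell type and hence no replicate and no test of any difference. COS1NR and MFH1NR were on the same slide and MSCs on a different one, scanned apart, so in a ratio to MSCs the slide and the cell type cannot be told apart. A ratio was counted if it was at least 2-fold, and in the 1895 genes with 2 probes, the log2 ratios of the probes differed by a median of 0.28 (COS1NR) or 0.31 (MFH1NR). A probe that the scanner software did not call well above background on an array has only an upper limit there. Its ratio is then a bound, the brighter scaled intensity over the lowest scaled intensity well above background on the dim array or, if higher, the dim probe's own. The lowest such intensity was 17.9 for MSCs, 29.4 for COS1NR and 30.1 for MFH1NR. Scaling moved all genes together. Without it the median log2 ratio of all genes was 0.52 (COS1NR) and 0.79 (MFH1NR), and with spike-in scaling it was -0.13 and 0.57, against 0.11 and 0.02 as used here. Among the arrays, between 56.6% and 59.7% of spots were well above background, and no spot was saturated.

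In each sarcoma line more of the 10 genes were lower than higher against MSCs, and the lines shared most but not all of the lower ones. In COS1NR, 5 genes were at least 2-fold lower than in MSCs (Vegfa, Vegfc, Kdr, Angpt2 and Tie1) and 2 were higher (Angpt1 and Flt1). In MFH1NR, 5 were lower (Vegfa, Vegfd, Kdr, Angpt2 and Tie1) and 2 were higher (Vegfc and Angpt1). Lower in both lines were 4 genes, and Angpt1 was higher in both. Of all 10010 genes well above background on at least 1 array, 39.4% were at least 2-fold apart in COS1NR (19.4% lower, 20.0% higher) and 40.2% in MFH1NR (21.2% lower, 19.0% higher), and 12.9% were lower and 10.8% higher in both. Tek was well above background on no array, and 4 genes (Vegfa, Vegfb, Kdr and Angpt1) were so on all 3. The other 5 passed through 1 or 2 arrays. Against an array where it did not pass, such a gene could differ in 1 direction only, though not always by 2-fold. With the mean of a gene's probes, 3 genes were lower and 2 higher in COS1NR, and 4 lower and 2 higher in MFH1NR. Of the 4 genes above background on all arrays, Vegfa and Kdr were at least 2-fold lower and Angpt1 higher in each line.

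**Figure D1:**
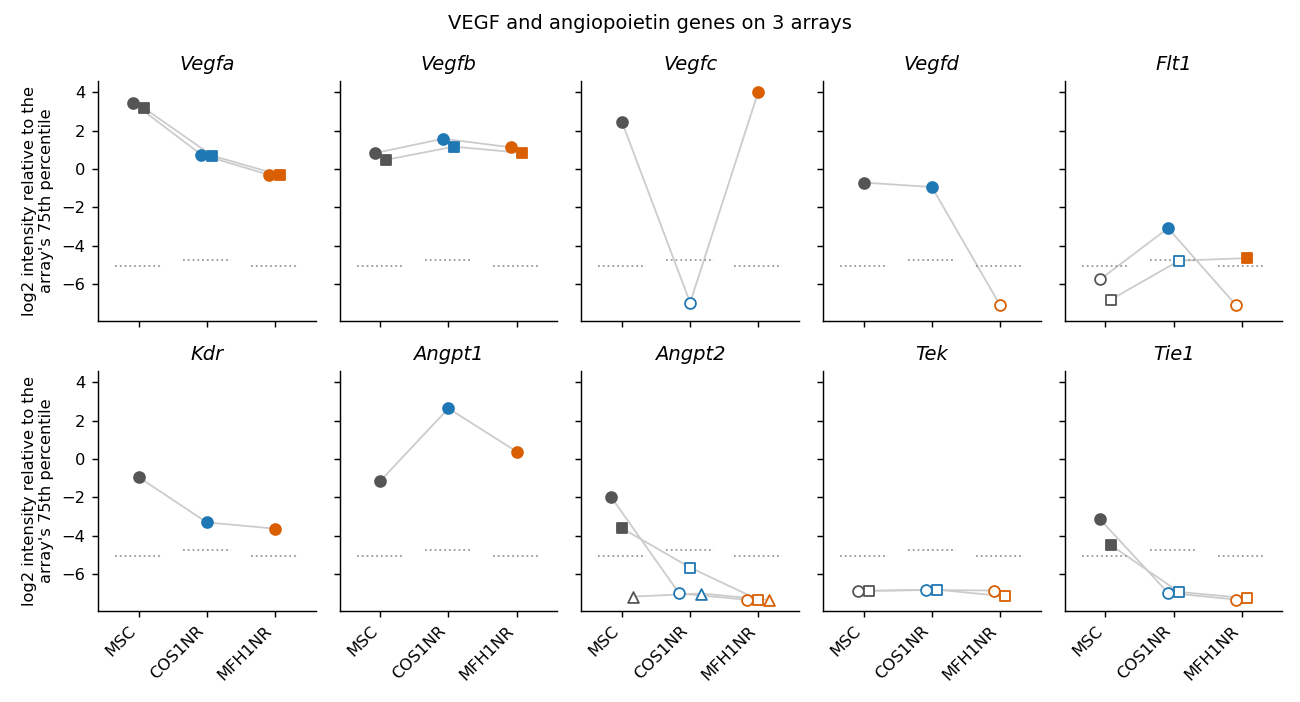
Log2 of the intensity over the array's 75th percentile, for every probe of the 10 genes on the 3 arrays (circles, squares and triangles are different probes of a gene, and gray lines join 1 probe). Filled points were well above background, open points were not, and dotted lines mark the lowest level well above background on each array. Vegfa stepped down from MSCs to COS1NR to MFH1NR by both probes, Angpt1 was brightest in COS1NR, Vegfc was below the limit in COS1NR only, and Tek was below it on all 3 arrays.

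Vegfa, the main angiogenic factor, gave 6361 in MSCs but 1301 in COS1NR and 803 in MFH1NR. After scaling, it was 6.42-fold lower in COS1NR and 13.4-fold lower in MFH1NR than in MSCs. The probe is printed 10 times on each array, which gives an error within the array. Over the 8 spots in MSCs that were not called outliers, intensities ran from 6050.0 to 6769 with a mean of 6364 ± 219 (SD). The 10 spots in COS1NR gave 1301 ± 26.7 and the 10 in MFH1NR gave 803 ± 17.0. The spots of the 3 arrays did not overlap, and their SD in log2 was at most 0.05, which covers neither cultures nor labeling. A second probe of the same RefSeq transcript, with 5299, 1254 and 796.5 in the same order, was 5.55-fold and 11.2-fold lower. Between the sarcomas, Vegfa was 2.08-fold lower in MFH1NR by the first probe and 2.02-fold by the second. Other processing took this last difference under 2-fold, to a log2 ratio of -0.70 with no scaling and -0.28 with spike-in scaling, as did a normexp background correction (-0.98).

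**Figure D2:**
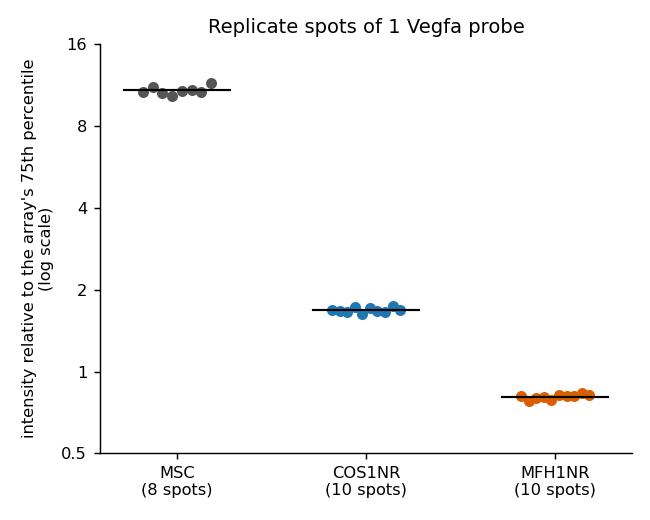
Intensity of each replicate spot of 1 Vegfa probe, divided by the 75th percentile of its array (log scale), with the mean of the spots as a line. The spots of MSCs lay near 10.8, those of COS1NR near 1.68 and those of MFH1NR near 0.81, with no overlap.

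Vegfc, the main lymphatic growth factor, gave the largest bound of the 10 genes. Its single probe had an intensity of 3187 in MSCs, 16071 in MFH1NR and only 6.23 in COS1NR, which was not well above background. It was 2.99-fold higher in MFH1NR than in MSCs and at least 142-fold lower in COS1NR, and so at least 426-fold higher in MFH1NR than in COS1NR. Vegfc was thus on opposite sides of MSCs in the 2 lines, as were 0.989% of all genes in this order of the lines. None of the 10 genes was higher in COS1NR and lower in MFH1NR, as 1.25% of all genes were.

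Vegfd, its closest relative, showed the reverse order between the sarcomas. Its probe had 362 in MSCs, 404 in COS1NR and 7.38 in MFH1NR, where it was not well above background. The ratio of COS1NR to MSCs was 0.850, a difference below the median one between probes of a gene, and it turned to a log2 ratio of 0.16 without scaling. MFH1NR had at least 20.3-fold less Vegfd than MSCs and at least 17.3-fold less than COS1NR. Each sarcoma line thus had 1 of these lymphatic ligands below the limit, Vegfc in COS1NR and Vegfd in MFH1NR, and the MSCs had both above it.

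Vegfb, a ligand of Flt1, had the smallest range over the 3 cultures among the 4 genes above background on all arrays, 0.75 in log2. Its brighter probe had 1046, 2309.7 and 2175 in MSCs, COS1NR and MFH1NR, and the ratios to MSCs were 1.68 and 1.23, and the other probe gave 1.61 and 1.28. All of these were above MSCs and under 2-fold. Without scaling, the log2 ratios of the brighter probe were 1.14 and 1.06, which is past 2-fold. In MFH1NR the scaled ratio of 1.23, a log2 ratio of 0.30, was no larger than the 0.31 by which 2 probes of a gene typically differed. Between the sarcomas Vegfb stayed within 2-fold, and its direction turned with spike-in scaling.

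Promoter sequences were available from RefSeq (GRCr8) for 7 of the 10 genes, and Angpt1, Angpt2 and Tek were not among them. The 250 bases before the annotated start are shown for Vegfa (chr9:22452604-22452853, + strand, the first of its starts) and Vegfc (chr16:44560888-44561137, - strand), since these 2 ligands lay on opposite sides of MSCs in MFH1NR. Capitals mark GC boxes, the letters GGGCGG on either strand.
Vegfa: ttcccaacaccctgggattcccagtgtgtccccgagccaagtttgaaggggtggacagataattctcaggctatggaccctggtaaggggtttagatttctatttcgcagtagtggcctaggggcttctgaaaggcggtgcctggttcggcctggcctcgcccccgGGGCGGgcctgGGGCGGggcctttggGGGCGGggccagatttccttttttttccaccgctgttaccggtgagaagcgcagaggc
Vegfc: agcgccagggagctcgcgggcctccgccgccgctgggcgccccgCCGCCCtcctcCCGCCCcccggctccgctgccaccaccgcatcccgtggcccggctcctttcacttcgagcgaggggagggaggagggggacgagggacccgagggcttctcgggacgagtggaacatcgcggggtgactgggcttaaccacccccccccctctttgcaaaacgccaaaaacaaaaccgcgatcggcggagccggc
The Vegfa window held 3 GC boxes and the Vegfc window 2. At least 1 GC box was found in 6 of the 7 windows, all but that of Vegfd, and in 30.5% of the 33469 windows of all promoters. The core letters of a hypoxia response element were searched on both strands as ACGTG, found in none of the 7 windows and in 16.6% of all, and as GCGTG, found in 3 of them (Vegfb, Flt1 and Kdr) and in 25.9% of all. TATAAA was found for Flt1 and Vegfd and in 12.9% of all windows, and the AP-1 letters TGANTCA in none of the 7 and in 6.34% of all. A match is only a match of letters, and no match says only that these letters are not in this window.

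Of the VEGF receptors, Kdr, which carries most of the endothelial response to Vegfa, was lower in both sarcomas. The probe gave 306 in MSCs against 78.8 in COS1NR and 80.8 in MFH1NR, all well above background. It was 5.11-fold lower in COS1NR and 6.40-fold lower in MFH1NR, and the ratio of MFH1NR to COS1NR was 0.799, whose direction turned without scaling and with spike-in scaling. Flt1, which binds Vegfa tightly and signals weakly, was faint everywhere, and its 2 probes did not give 1 pattern. By the first, with 10.9 in MSCs, 91.6 in COS1NR and 7.27 in MFH1NR, Flt1 was above background in COS1NR only and at least 3.90-fold higher there than in MSCs. By the second, with 5.30, 28.3 and 40.0, it was above background in MFH1NR only and at least 1.32-fold higher there than in MSCs. The normexp correction, an alternative chosen after seeing the data, brought the first probe's ratio in COS1NR under 2-fold (log2 ratio 0.68). Both probes were below the limit in MSCs, so only these bounds can be given.

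In the angiopoietin branch, the 2 ligands lay on opposite sides of MSCs. Angpt1, the agonist of Tek, gave 269 in MSCs, but 4817 in COS1NR and 1304 in MFH1NR, which is 13.6-fold and 2.87-fold higher. As far above MSCs as Angpt1 were 0.699% of the genes in COS1NR and 10.7% in MFH1NR, with bounds of other genes counted at their value. It was 4.75-fold lower in MFH1NR than in COS1NR. Angpt2, the ligand that can oppose Angpt1, was well above background in MSCs only, with 149, 6.06 and 6.19 by its brightest probe. These are decreases of at least 6.67-fold (COS1NR) and 8.37-fold (MFH1NR). A second probe, with 48.3 in MSCs, bounded these decreases at 2.16-fold and 2.71-fold, and the last was below the limit on all 3 arrays. With the mean of the 3 probes, the log2 ratios were -0.47 and -0.80, under 2-fold.

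The receptors of this branch were faint or below the limit. Tek had intensities between 5.05 and 8.66 by 2 probes and was not well above background on any array, so no ratio can be given, including in COS1NR, where its ligand Angpt1 was highest. Tie1 was well above background in MSCs only, with 67.0 by its brighter probe against 6.19 in COS1NR and 6.25 in MFH1NR, which bounds the log2 ratios at -1.58 and -1.91. The other probe had only 26.4 in MSCs and bounded the decreases at 1.18-fold and 1.48-fold, and with the mean of both probes the log2 ratio in COS1NR was -0.91, under 2-fold. Of the 4 receptors, only Kdr was well above background in all 3 cultures.

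**Figure D3:**
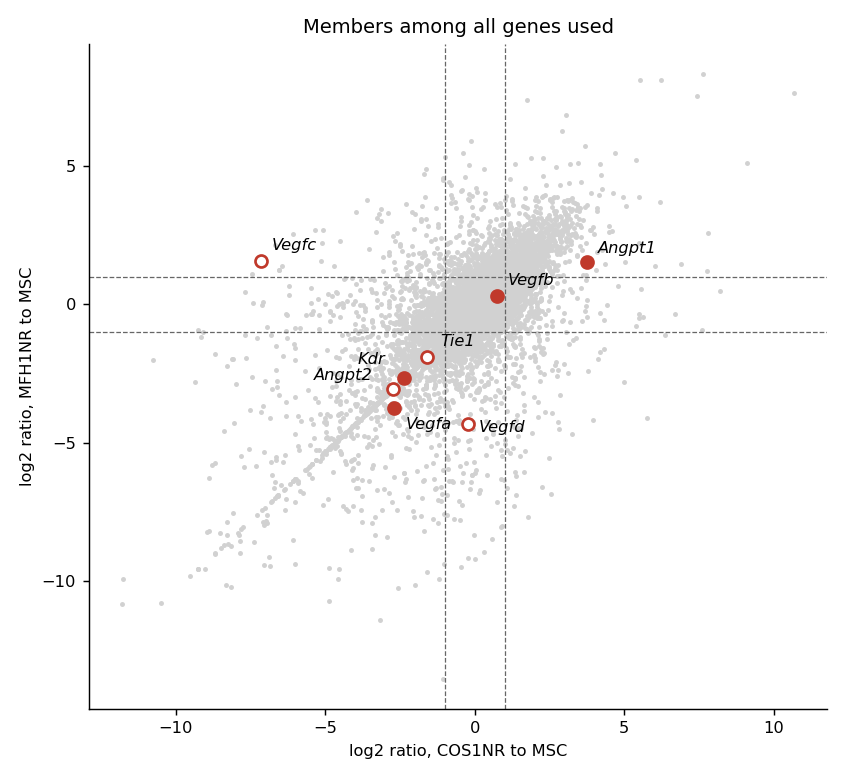
Log2 ratio of COS1NR to MSCs (x axis) and of MFH1NR to MSCs (y axis) for the genes used that have both ratios, in gray, with the VEGF and angiopoietin genes in red. Open red circles hold at least 1 bound, and dashed lines mark 2-fold. Vegfa, Kdr, Angpt2 and Tie1 lay at the lower left, Angpt1 at the upper right, Vegfc alone at the upper left, and Vegfd was low in MFH1NR only. Flt1 and Tek lack a ratio and are not drawn.

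Set directly against each other on the shared slide, the sarcomas differed by at least 2-fold in 5 of the 10 genes. Vegfc was higher in MFH1NR, and Vegfa, Vegfd, Flt1 and Angpt1 were higher in COS1NR. Of these, Vegfa was under 2-fold with the other processing given above, and the second Flt1 probe gave the opposite direction, with a log2 ratio of 0.082, so that either change leaves 4 genes. Of all genes, 11.7% were higher and 14.2% lower in MFH1NR than in COS1NR. Vegfb and Kdr were within 2-fold, and for Angpt2, Tek and Tie1 both lines were below the limit. Among the 4 genes well above background on all arrays, Angpt1 had the widest range of scaled levels, 3.77 in log2, close to that of Vegfa with 3.74, and the order of the 2 turned with quantile normalization and with normexp. Of the other genes well above background on all arrays, those whose centered levels on the 3 arrays lay nearest to Angpt1 were Oit3, Kcnh1, Ednra, Pkp2 and Rxfp1, at Euclidean distances between 0.29 and 0.41 in log2 (7932 genes compared). With only 3 arrays such a likeness rests on 2 ratios. For Ednra, an endothelin receptor, the ratios to MSCs were 13.1 and 2.07, but 4.38 and 2.30 by its second probe.

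The partners of the system were mostly lower too. Of 9 listed genes, 5 had a named probe, and of the 4 used, 3 were at least 2-fold lower in COS1NR and 4 in MFH1NR, with none higher (19.4% and 21.2% of all genes were lower). Pgf, a ligand that binds Flt1 like Vegfb, gave 3162 in MSCs, but 36.7 in COS1NR and 101.8 in MFH1NR, decreases of 113-fold and 52.4-fold. Nrp1, a co-receptor of Kdr, had 195.8, 125 and 6.60 in the same order of cultures, and its decreases were 2.05-fold (COS1NR) and at least 11.0-fold (MFH1NR). Nrp2, a co-receptor for Vegfc, was faint but well above background on all arrays, with 51.7, 49.2 and 40.3, and was 2.16-fold lower in MFH1NR, with a ratio of 0.723 in COS1NR. The call of Nrp2 in MFH1NR was lost with no scaling and with median, quantile and spike-in scaling, and that of Nrp1 in COS1NR with no scaling and with median scaling. Angpt4, a further Tek ligand, was 8.08-fold and 9.54-fold lower. Flt4, the receptor for Vegfc and Vegfd, was not well above background on any array, with 4.27, 6.29 and 6.28, so the high Vegfc of MFH1NR was measured in cells whose Flt4 probe was below the limit. Ptprb, Ccbe1, Adamts3 and Svep1 had no named probe. Of the angiopoietin-like genes, Angptl4 was 2.40-fold higher in COS1NR and 6.20-fold lower in MFH1NR, Angptl2 was 18.9-fold and 2.10-fold lower (the latter under 2-fold with no, median or spike-in scaling), Angptl6 had ratios of 0.551 and 1.18, and Angptl1 and Angptl7 had no named probe.

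Genes that respond to low oxygen were compared because Vegfa is among their classical members. Of 18 hypoxia-induced targets other than Vegfa, 7 were at least 2-fold lower in COS1NR and 14 in MFH1NR, and none was higher in either, where 19.4% and 21.2% of all genes were lower. Their median log2 ratio was -0.55 in COS1NR and -1.79 in MFH1NR. The counts move with the scaling, to 2 lower and 2 higher in COS1NR and 9 lower in MFH1NR without it, and to 8 and 9 lower with spike-in scaling. Ddit4, an inhibitor of mTORC1, was 7.96-fold and 59.5-fold lower, and Ndrg1 was 2.01-fold and 6.72-fold lower, the former under 2-fold with no scaling and with median scaling. Pdk1, which inhibits pyruvate dehydrogenase, had a ratio of 1.99 for COS1NR, while MFH1NR had at least 82.0-fold less. Hk2, a hexokinase, was 3.29-fold and 8.39-fold lower. Kdm3a and the glycolytic enzyme Aldoa stayed within 2-fold in both lines. Of the oxygen-sensing regulators, Hif1a had ratios of 1.39 and 0.221, and Epas1, which encodes HIF-2α, was raised 3.13-fold in COS1NR while MFH1NR had at least 6.17-fold less. Egln3, a prolyl hydroxylase that marks HIF for degradation, was listed here and not among the 18 targets. It was 49.6-fold higher in COS1NR and had a ratio of 0.727 in MFH1NR. Egln2 had ratios of 0.581 and 0.589, and Arnt and Vhl were within 2-fold in both lines.

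Markers of other cell types were compared as well. All 15 macrophage markers were well above background in MSCs. All were at least 2-fold lower in both sarcomas, where 12.9% of all genes were. The decreases in COS1NR were at least 244-fold for C1qa and 311-fold for Tyrobp. Without scaling 13 of the 15 were lower in each line, and with the second of a gene's probes 14 were. The summed scaled level of the 15 was 13.0 in COS1NR and 5.37 in MFH1NR against 147 in MSCs. Of the 10 pericyte and smooth muscle markers with a probe, 8 were lower in each sarcoma (19.4% and 21.2% of all genes were). The sum of the 10 went from 341 in MSCs to 112 and 79.6. Such a sum is led by the brightest probes, and Notch3, the brightest of these in the sarcomas, was within 2-fold of MSCs in both lines. Fibroblast and MSC markers were well above background in MSCs for 12 of 12, and their sum fell to 222 and 364 from 1419.9. Of the 12, 10 were at least 2-fold lower in COS1NR and 7 in MFH1NR (19.4% and 21.2% of all genes were). With the mean or the second of a gene's probes, 12 and 9 of these markers were lower. The part of these cells in the lower levels of Vegfa, Pgf, Kdr, Angpt2 and Tie1 was not tested, and fewer cells of a type and less RNA per cell cannot be told apart in such cultures. Of the 11 endothelial markers with a probe, 6 (Pecam1, Cldn5, Emcn, Erg, Sox17 and Plvap) were not well above background on any array. Cdh5 (VE-cadherin) was faint but above background in MSCs and COS1NR, with 26.03 and 48.3, and below the limit in MFH1NR. Ramp2 was above background on all arrays. The sum of the 11 was 1.46, 1.48 and 1.68 in MSCs, COS1NR and MFH1NR, a total set by a few bright probes, among them Ramp2 and Sox18, which says little of the others. Esam and Clec14a were well above background in MSCs only, with 244 and 72.8, although a second Clec14a probe was below the limit on all arrays. Of the 5 endothelial markers used, 2 were lower and 1 higher in each sarcoma (39.4% and 40.2% of all genes were 2-fold apart). Sox18 was higher in both sarcomas by its brighter probe, 5.43-fold in COS1NR, and lower by its other probe. Of the osteoblast markers, Sp7 was below the limit in MSCs and in COS1NR, which is labeled an osteosarcoma line. Alpl, Bglap, Ibsp and Spp1 were above it in COS1NR but lower than in MSCs, by 3.70-fold, 5.80-fold, 14.1-fold and 2.13-fold, the last under 2-fold without scaling and with median scaling. Between the sarcomas, 3 of the 7 osteoblast markers with a probe were higher in MFH1NR and 1 was lower (11.7% and 14.2% of all genes).

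**Figure D4:**
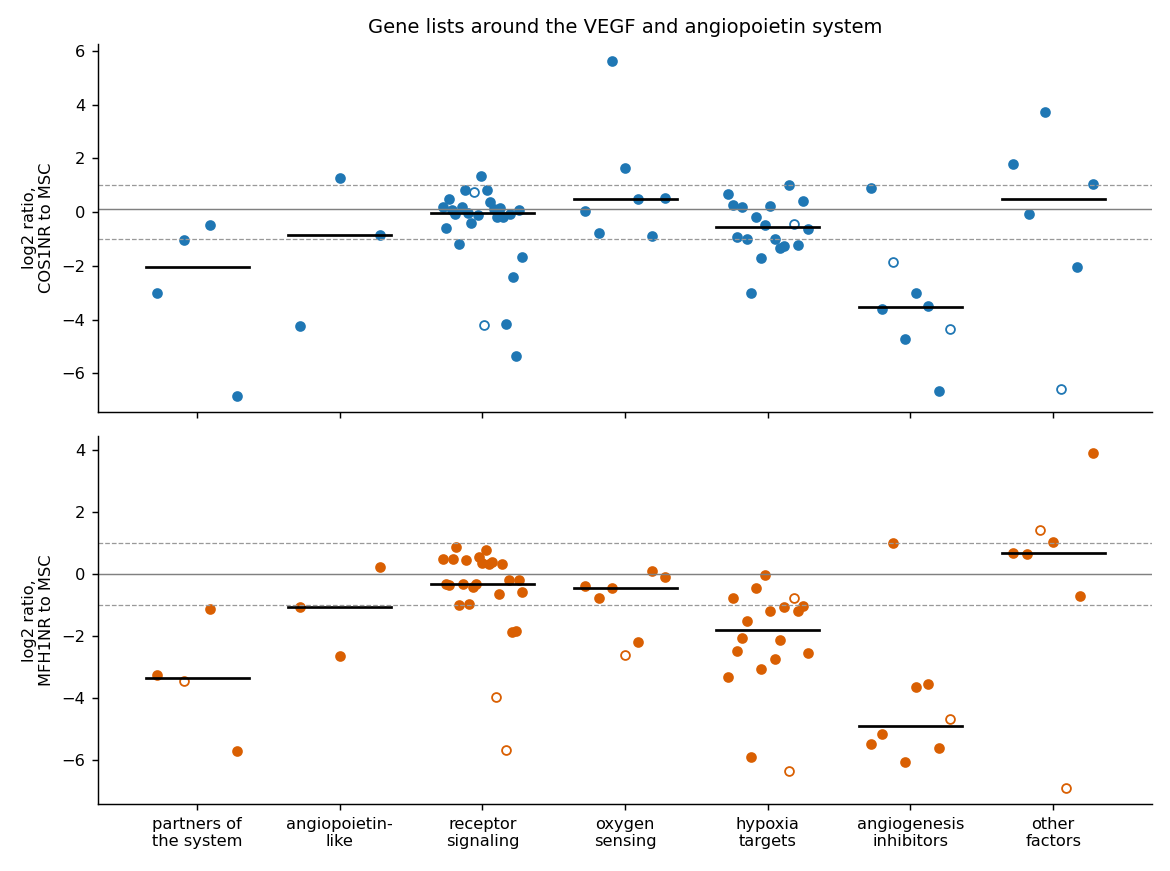
Log2 ratio to MSCs of each gene in 7 lists around the VEGF and angiopoietin system, for COS1NR (top) and MFH1NR (bottom). Filled points were measured on both arrays and open points are bounds, black bars are list medians, the gray line is the median of all genes, and dashed lines mark 2-fold. The medians of hypoxia targets were -0.55 (COS1NR) and -1.79 (MFH1NR), and those of angiogenesis inhibitors -3.54 and -4.91.

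Secreted inhibitors of angiogenesis were lower along with Vegfa. Of 8 with a probe, 7 were at least 2-fold lower in each sarcoma (19.4% and 21.2% of all genes were), 6 of them in both (12.9% of all genes). Thbs2, a matrix protein that blocks endothelial growth, was 101-fold and 49.0-fold lower, and Serpinf1 was 26.5-fold and 67.4-fold lower. Timp3, which binds Kdr and inhibits metalloproteinases, was at least 20.3-fold and 25.5-fold lower, and Cxcl10 was 12.1-fold and 35.4-fold lower. Col18a1, the source of endostatin, was 44.5-fold lower in MFH1NR but had a ratio of 1.88 in COS1NR. Sema3a, which binds Nrp1, was 2.03-fold higher in MFH1NR and at least 3.59-fold lower in COS1NR, so that, like Vegfc, it lay on opposite sides of MSCs.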

How the data were processed

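One-color Agilent arrays of the rat genome were used, 1 for each of COS1NR, MFH1NR and MSCs. The authors deposited scanner intensities from Feature Extraction (10.5.1.1 in the file headers, 9.1 in the submitters' processing notes), which subtracted background and detrended each array without scaling between arrays. The deposited series table held the same values on 3 of 3 arrays. Control spots and outlier spots (187 to 217 per array) were left out, spots of a probe were averaged in log2, and levels were taken relative to the 75th percentile. Probes were named by RefSeq accession with a GRCr8 gene table (16745 probes, 13301 genes). Probe positions, which refer to an earlier build, were not used. For each gene the probe with the highest mean log2 intensity was taken, and the gene was used where that probe exceeded background on any array. The spots of the 10 genes that were well above background had a software error of 10.0% to 19.6% of the intensity (55 spots).

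The genes and lists were chosen with earlier results of these data known. Named are the 10 genes, their partners and the angiopoietin-like genes, of other lists up to 4 genes with the largest and 2 with the smallest mean ratio, and the 5 genes nearest to the one of widest range. Other genes named, such as cell type markers at the limit, were chosen after their values were seen. The counting code was checked on simulated data with differences set past the 2-fold threshold. These data held no variation between cultures, labeling or slides, so the check says nothing of the counts above. Python 3.11.15, numpy 2.4.6, pandas 2.3.3, matplotlib 3.10.9, R 4.3.3 and limma 3.58.1 (normexp) were used. The array number limits the precision. Some genes of the lists are not reported here.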

Additional observations from a re-analysis of the deposited data

Results flagged for a closer look

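Vegfc stood out because the 2 sarcoma lines lay on opposite sides of MSCs, at least 2-fold each, with a log2 ratio of -7.15 (a bound) in COS1NR and 1.58 in MFH1NR. The difference was not tested, since there was 1 array per cell type, and it rests on 1 probe.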

How the results depend on the processing

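Alternatives were no scaling, median, quantile and spike-in scaling (4 probes), the deposited series table, the mean or the second of a gene's probes, 2 other filters on dim probes, the measured value in place of the bound and a 3-fold threshold. Added after the data were seen were normexp on the median spot intensity, since the planned correction on the mean spot intensity was not run, and the use of outlier spots. When every array had to be well above background, the genes at least 2-fold apart fell to 3 in COS1NR, 3 in MFH1NR and 2 between the sarcomas (from 7, 7 and 5), and the calls of the other lists, summed over both comparisons with MSCs, to 97 (from 150), because fewer genes are used. Of the 24 ratios of the VEGF and angiopoietin genes, 12 of 239 values under an alternative crossed 2-fold and 1 called ratio changed direction, that of Flt1 between MFH1NR and COS1NR by its second probe, with a log2 ratio of 0.082. Vegfa in MFH1NR against MSCs ranged from -3.75 to -2.99 in log2, and Angpt1 in COS1NR from 3.53 to 4.16. With the 3-fold threshold, no gene was higher in MFH1NR, since Vegfc and Angpt1 were under it. No paired analysis was possible because each cell type had 1 array. Ratios of probes below the limit depend on background and are bounds only.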

Other observations

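Of 26 signaling genes downstream of VEGF receptors, 6 were at least 2-fold lower and 1 higher in COS1NR, and 4 were lower and none higher in MFH1NR (39.4% and 40.2% of all genes were at least 2-fold apart), with median log2 ratios of -0.04 and -0.30. The directions depend on the scaling, since 4 were higher in COS1NR and 10 in MFH1NR without it. Rac2, a leukocyte GTPase, was 17.8-fold and at least 50.8-fold lower, and Sphk1, a sphingosine kinase, was 40.8-fold and 3.60-fold lower. Rcan1, an inhibitor of calcineurin, was 5.36-fold and 3.62-fold lower. Prkcb was within 2-fold in COS1NR, with a ratio of 0.889, and MFH1NR had at least 15.6-fold less than MSCs. Sphk2 and Map2k2 were within 2-fold in both lines.

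Other angiogenic factors went both ways, with 3 higher and 2 lower in COS1NR and 3 higher and 1 lower in MFH1NR, of 7 used. The all-gene shares are those just given, and without scaling or with spike-in scaling 5 were higher in MFH1NR. Fgf2 was 4.15-fold lower in COS1NR and had a ratio of 0.608 in MFH1NR. Ptn (pleiotrophin) was 2.06-fold and 15.1-fold higher, the former under 2-fold with spike-in scaling, and Edn1 was above the limit in MFH1NR only, at least 2.72-fold higher than in MSCs. Apln (apelin) was 3.43-fold and 1.61-fold higher, and its receptor Aplnr was within 2-fold in both lines. Esm1 (endocan) was well above background in MSCs only, at 2117, with decreases of at least 94.6-fold (COS1NR) and 119-fold (MFH1NR).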
